A study of Mus musculus with 16 samples.

Results

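The SR protein kinases are the enzymes that phosphorylate arginine- and serine-rich (RS) domains, and the genes described here are Srpk1, Srpk2, Srpk3, Clk1, Clk2, Clk3, Clk4 and Dyrk1a. They were chosen by name as the SRPK and CLK genes, with the related kinase gene Dyrk1a, and make up 8 of the 56953 genes in the count table. Their splicing events were taken by gene symbol from 3 rMATS tables and number 88 of 57891 distinct events. The study asked whether more TNPO3, the import receptor of SR proteins, changes the heart disease caused by mutant RBM20. Left ventricles of 16 Bl6J mice were sequenced, 4 mice in each group, with males and females used. The WT Ctr and WT Tnpo3 groups had wild-type RBM20, and the P635L Ctr and P635L Tnpo3 groups were homozygous for the RBM20 mutation P635L. At an age of 4 weeks, every mouse received 1e12 viral genomes of AAV9 by tail vein injection, and hearts were taken after 12 more weeks, at 16 weeks. The Tnpo3 virus delivered Tnpo3 cDNA, and the control virus delivered a construct in which the broadly active CAG promoter drives Cre recombinase and green fluorescent protein (pCAG-iCre-T2A-eGFP). No group without virus was analysed here, so what the groups share by carrying AAV9 was not measured. The labels do not say which cells each virus reached.

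SR proteins carry RS domains whose phosphorylation decides where the proteins go and what they bind. SRPK kinases act mostly in the cytoplasm, where they phosphorylate RS domains, and TNPO3 then carries the phosphorylated proteins into the nucleus. CLK kinases are nuclear, phosphorylate SR proteins further and release them from nuclear speckles into the transcripts being spliced. RBM20, a splicing regulator of titin and calcium-handling genes in heart muscle, has an RS domain of its own, and mutations in it leave the protein in the cytoplasm. CLK genes are also known for splicing their own transcripts in several ways: an alternative exon ahead of the kinase domain can be kept or left out, and transcripts with unspliced introns around it stay in the nucleus.

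Library totals were uneven: the 8 P635L libraries (37803840 to 85922669 counts) were on the whole deeper than the 8 WT libraries (28493249 to 40610576). A single gene, ENSMUSG00000119584, held more than 10% of the counts in WT Ctr replicates 2 and 4 and WT Tnpo3 replicate 4. Xist was counted above the Y-linked genes in 3 libraries, all of them WT: WT Ctr replicate 4 and WT Tnpo3 replicates 2 and 4. Sex is therefore partly tied to genotype in the comparisons of P635L with WT groups. Tnpo3 stood at 44.8 ± 3.29 CPM (reads scaled to library size with TMM; SD, n = 4) in WT Ctr and 44.5 ± 2.72 in P635L Ctr, against 320.0 ± 126 in WT Tnpo3 and 464 ± 214 in P635L Tnpo3. Marker lists were summed as counts scaled to the library total, without TMM factors. The 7 cardiomyocyte markers, of which 0 were at 0, summed to 59100 to 75900 in WT Ctr, 53700 to 77800 in WT Tnpo3, 52200 to 60500 in P635L Ctr and 58700 to 65800 in P635L Tnpo3. Of these, 3 fell between P635L Ctr and WT Ctr in edgeR: Myh6 by 0.64 on the log2 scale (adjusted p = 0.0241), Tnni3 by 0.81 (0.000234) and Myl2 by 0.61 (0.00424). The 7 fibroblast markers summed to 818 to 1540 in WT Ctr, 1010 to 1310 in WT Tnpo3, 1530 to 2480 in P635L Ctr and 1130 to 1650 in P635L Tnpo3. In edgeR, 6 of them were called higher in P635L Ctr than in WT Ctr, and 5 were called lower in P635L Tnpo3 than in P635L Ctr. The part of these shifts in the kinase values was not tested. In bulk tissue, fewer cells of a type and less RNA per cell cannot be told apart.

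All 8 kinase genes were expressed in every ventricle, and their levels were set against each other per length of exon (RPKM, which scales reads to exon length and to library size, here with TMM factors). Srpk3 (chromosome X, 72818011 to 72822531, GRCm39) had a mean of 20.9 RPKM over the 16 libraries and Clk1 (chromosome 1, 58449348 to 58463225) a mean of 20.6. Clk4 (chromosome 11, 51152557 to 51172593) followed at 13.0 RPKM. The other 5 lay between 3.51 and 5.74 RPKM: Clk2 (chromosome 3, 89072102 to 89084228) at 5.74, Clk3 (chromosome 9, 57657907 to 57673143) at 5.38, Dyrk1a (chromosome 16, 94370869 to 94496376) at 4.88, Srpk1 (chromosome 17, 28806622 to 28841683) at 3.93 and Srpk2 (chromosome 5, 23708262 to 23889615) at 3.51. Neighbours in this order were compared within libraries by an exact two-sided permutation test of paired log2 values, adjusted over 7 pairs. Clk1 exceeded Clk4 and Clk4 exceeded Clk2 in 16 of 16 libraries (exact permutation, adjusted p = 0.0001068 for each). Srpk3 and Clk1 did not separate (Srpk3 higher in 6 of 16 libraries, exact permutation, adjusted p = 0.4189), nor did Clk2 and Clk3 (adjusted p = 0.06422) or Clk3 and Dyrk1a (adjusted p = 0.2096). Dyrk1a exceeded Srpk1 in 14 libraries (exact permutation, adjusted p = 0.001976) and Srpk1 exceeded Srpk2 in 15 (adjusted p = 0.0004985). These tests take the exon lengths as fixed: 8251 bases for Dyrk1a, 12376 for Srpk1 and 13901 for Srpk2. Error in those lengths was not tested. In CPM, without exon length, group means of Dyrk1a (35.2 to 44.7) were below those of Srpk1 in every group. Srpk1 (44.9 to 53.1) exceeded Srpk2 (45.6 to 53.3) only in WT Tnpo3. Clk1 (139 to 198) still exceeded Clk4 (62.6 to 91.1) in every group, and Clk4 exceeded Clk2 (26.8 to 36.3). The level of Srpk2 may hold reads of Kmt2e, that of Clk3 reads of Edc3 and that of Clk4 reads of BC049762, genes that overlap them on the other strand, since whether strand was used when reads were counted is not given in the sources used here.

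**Figure D1:**
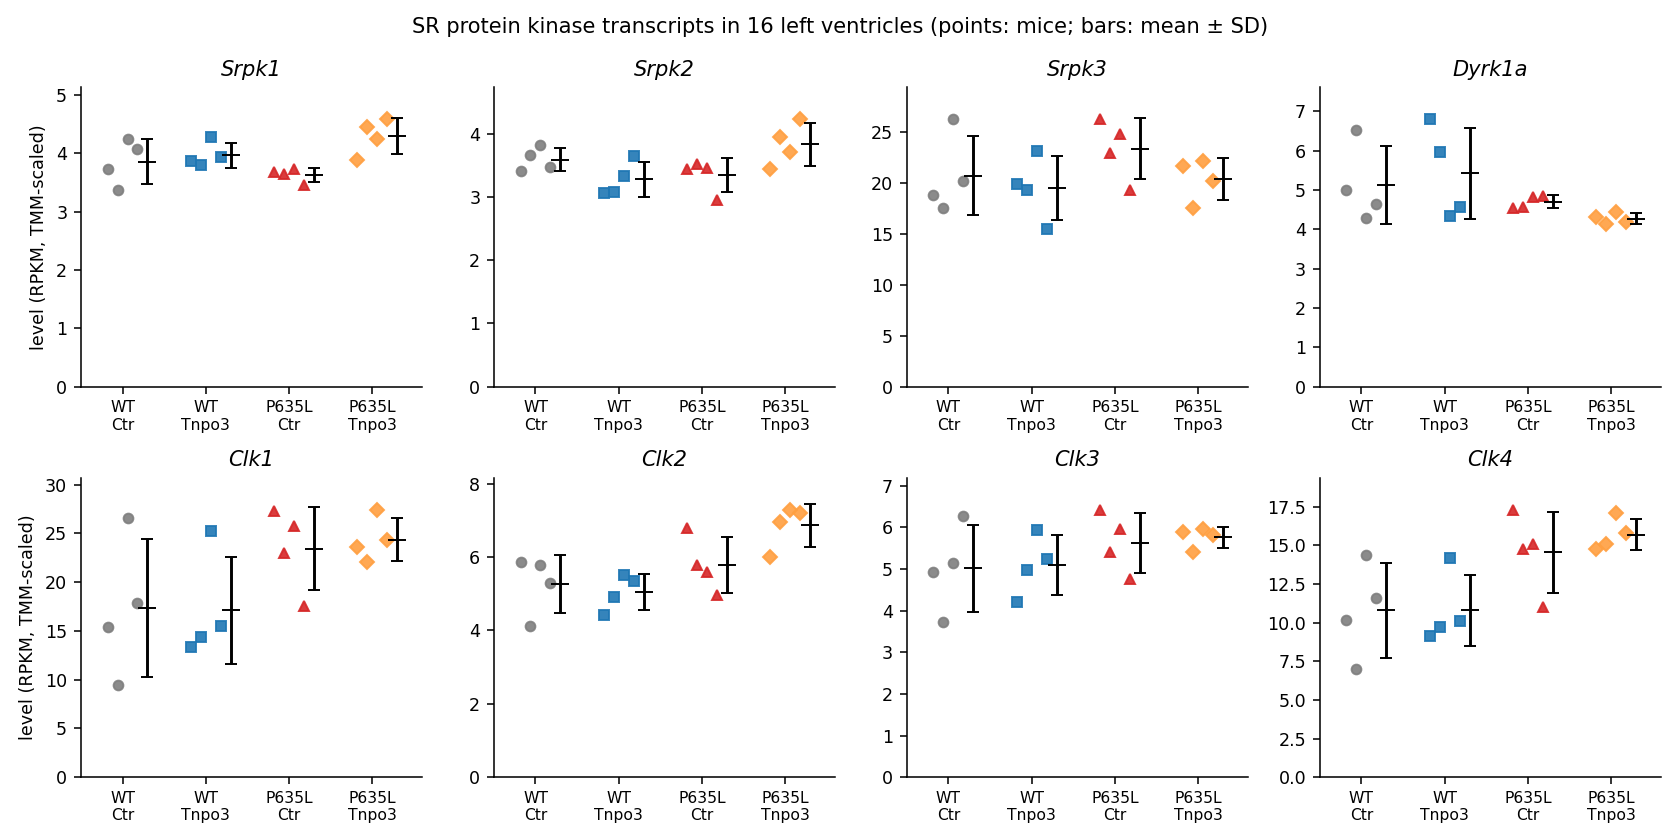
Level of each kinase transcript in RPKM (vertical axes, from 0) by group (horizontal axes); points are mice, and bars are the mean with SD over 4 mice. Clk1 ran from 9.49 to 26.6 RPKM among the WT mice, while Srpk1 and Srpk2 stayed between 2.95 and 4.58 RPKM throughout.

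The question put to these levels was whether mutant RBM20 or the Tnpo3 virus moved the kinases. In the 6 contrasts fitted with edgeR over 18662 genes, 0 of the 8 kinases passed an adjusted p (Benjamini-Hochberg over all genes) of 0.05. The same threshold was passed by 14.2% of all genes between P635L Ctr and WT Ctr, 3.88% between P635L Tnpo3 and P635L Ctr, 0.00536% between WT Tnpo3 and WT Ctr, 3.07% between P635L Tnpo3 and WT Ctr, 3.72% between P635L Tnpo3 and WT Tnpo3, and 0.504% in the interaction of virus and genotype. In the same order, 1, 1, 0, 2, 4 and 1 of the 8 kinases had an unadjusted p under 0.05, a limit passed by 28.1%, 18.4%, 3.2%, 18.3%, 20.1% and 12.4% of all genes. DESeq2 called 0 of the kinases in 5 of the contrasts and 1, Clk2, between P635L Tnpo3 and WT Tnpo3. The median log2 fold change of the 8 genes was 0.15 between P635L Ctr and WT Ctr, beside -0.05 over all genes, and 0.08 between P635L Tnpo3 and P635L Ctr, beside 0.01. The 4 mice of one group lay entirely above or below those of the other for 0 of the 8 kinases between P635L Ctr and WT Ctr (19.1% of all genes) and 0 between WT Tnpo3 and WT Ctr (1.09%). They did so for 2 between P635L Tnpo3 and P635L Ctr (20.4%), 2 between P635L Tnpo3 and WT Ctr (11.7%) and 2 between P635L Tnpo3 and WT Tnpo3 (11.5%).

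**Figure D2:**
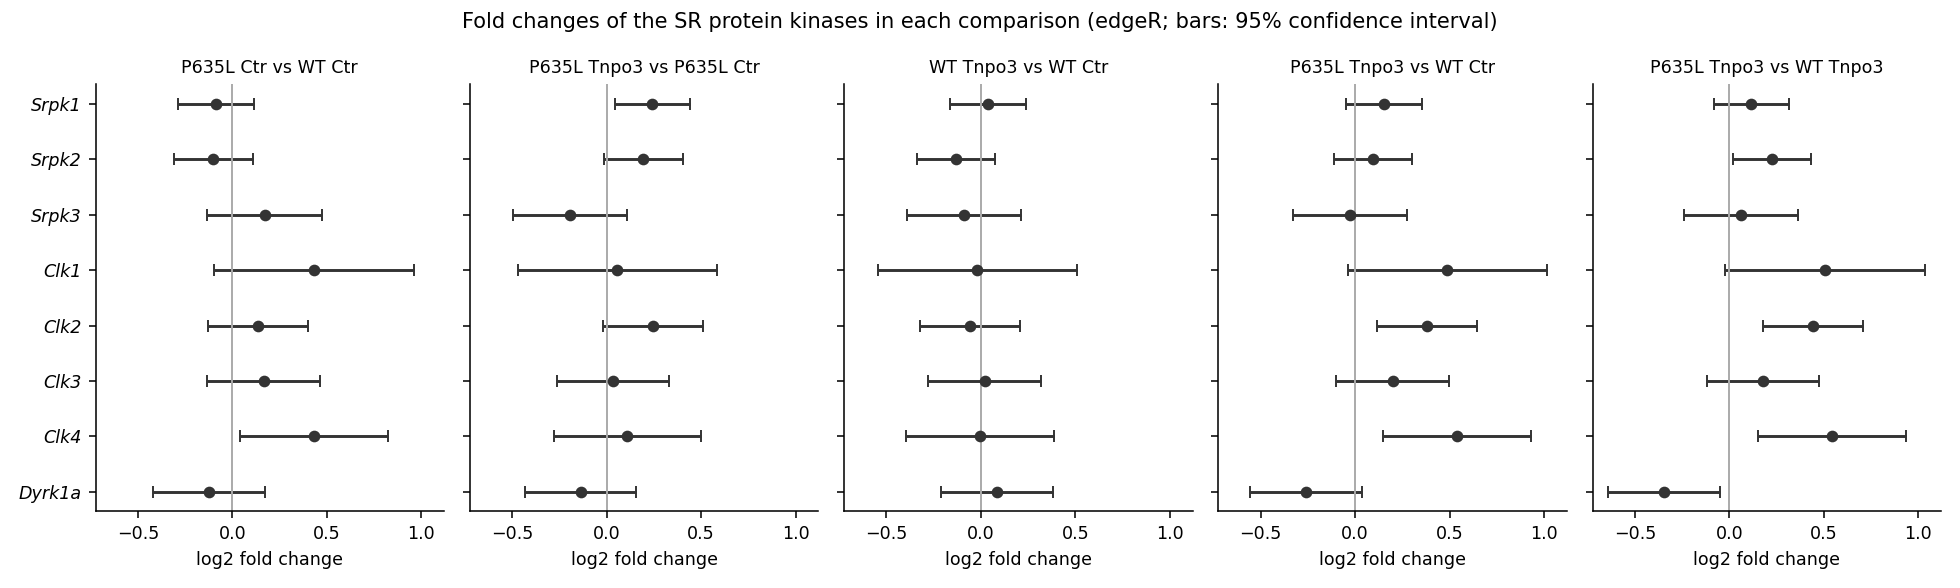
Log2 fold change of each kinase (horizontal axes) with its 95% confidence interval, in 5 comparisons between groups (panels). The intervals of Clk1 are the widest, and those of Clk2 and Clk4 lie above 0 in both comparisons of P635L Tnpo3 with a WT group, although no adjusted p was under 0.05.

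Srpk1 and Srpk2 encode the broadly expressed SRPK kinases. Srpk1 stood at 3.73, 3.37, 4.25 and 4.08 RPKM in WT Ctr replicates 1 to 4, at 3.86, 3.79, 4.27 and 3.93 in WT Tnpo3, at 3.68, 3.65, 3.73 and 3.45 in P635L Ctr, and at 3.88, 4.45, 4.25 and 4.58 in P635L Tnpo3. All 4 P635L Ctr mice were below all 4 mice of both Tnpo3 groups, while WT Ctr overlapped every other group. Between P635L Tnpo3 and P635L Ctr, 20.4% of all genes separated in this way. P635L Ctr and WT Tnpo3 differ in both genotype and virus, and the share for them was not computed. From P635L Ctr to P635L Tnpo3 the log2 fold change of Srpk1 was 0.24 ± 0.10 (SE; edgeR, adjusted p = 0.177). With only the 8 P635L libraries in the fit, the adjusted p of Srpk1 was 0.0426 in edgeR. Srpk2 was highest in P635L Tnpo3 (3.44, 3.95, 3.71 and 4.23 RPKM) and lowest in 1 P635L Ctr mouse (2.95, against 3.45, 3.53 and 3.46 in the others of that group). Its values in WT Ctr (3.42, 3.66, 3.82 and 3.47) and WT Tnpo3 (3.06, 3.08, 3.33 and 3.65) overlapped both mutant groups. Srpk2 differed by 0.19 ± 0.10 on the log2 scale between P635L Tnpo3 and P635L Ctr (edgeR, adjusted p = 0.305) and by -0.13 ± 0.10 between WT Tnpo3 and WT Ctr (adjusted p = 1.0; -0.07 without WT Tnpo3 replicate 2), with an interaction of 0.33 ± 0.14 (unadjusted p = 0.0316, adjusted p = 0.352 in edgeR).

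Srpk3 encodes the SRPK kinase of striated muscle, whose transcription depends on MEF2 factors. It stood at 18.8, 17.5, 26.2 and 20.2 RPKM in WT Ctr, at 19.9, 19.3, 23.1 and 15.5 in WT Tnpo3, at 26.2, 22.9, 24.8 and 19.3 in P635L Ctr, and at 21.6, 17.5, 22.1 and 20.2 in P635L Tnpo3. All 4 groups overlapped, with the highest WT mouse level with the highest mutant mouse. The log2 fold change was 0.17 ± 0.14 between P635L Ctr and WT Ctr (edgeR, adjusted p = 0.471) and -0.20 ± 0.14 between P635L Tnpo3 and P635L Ctr (adjusted p = 0.514). The former was 0.31 without WT Ctr replicate 3, and the latter -0.12 without P635L Ctr replicate 1 or without P635L Tnpo3 replicate 2. Of the 4 MEF2 genes, 0 passed the test in either comparison.

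Clk1 and Clk4 encode closely related nuclear kinases. Clk1 stood at 15.4, 9.49, 26.6 and 17.9 RPKM in WT Ctr, at 13.3, 14.4, 25.2 and 15.5 in WT Tnpo3, at 27.3, 23.0, 25.8 and 17.6 in P635L Ctr, and at 23.6, 22.1, 27.4 and 24.3 in P635L Tnpo3. Replicate 3 of each WT group was as high as the mutant mice, and the other 6 WT mice lay between 9.49 and 17.9. Clk4 followed the same mice: it stood at 10.2, 7.02, 14.4 and 11.6 RPKM in WT Ctr, at 9.12, 9.75, 14.2 and 10.1 in WT Tnpo3, at 17.3, 14.8, 15.1 and 11.0 in P635L Ctr, and at 14.8, 15.1, 17.1 and 15.8 in P635L Tnpo3. For Clk4, the lowest P635L Tnpo3 mouse was above the highest mouse of either WT group, which did not hold for Clk1. The log2 fold changes between P635L Ctr and WT Ctr were 0.43 ± 0.25 for Clk1 (edgeR, adjusted p = 0.276) and 0.43 ± 0.19 for Clk4 (adjusted p = 0.138). Without WT Ctr replicate 3 they were 0.72 (edgeR, adjusted p = 0.0492) and 0.60 (adjusted p = 0.0414), so that this 1 library decided the call. Without WT Ctr replicate 2, the value of Clk1 was 0.25 (edgeR, adjusted p = 0.514). With 1 library left out at a time, the value of Clk4 ran from 0.295 to 0.60.

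Between P635L Tnpo3 and WT Tnpo3, which differ in genotype under the same virus, Clk4 differed by 0.54 ± 0.19 (edgeR, adjusted p = 0.112) and Clk1 by 0.51 ± 0.25 (adjusted p = 0.267). Without WT Tnpo3 replicate 3, the value of Clk4 was 0.70 (edgeR, adjusted p = 0.0363), and with other single libraries left out it fell as low as 0.468. Between P635L Tnpo3 and WT Ctr, which differ in genotype and virus, Clk4 differed by 0.54 ± 0.19 (edgeR, adjusted p = 0.131) and Clk1 by 0.49 ± 0.25 (adjusted p = 0.314). Without WT Ctr replicate 3, that of Clk4 was 0.71 (edgeR, adjusted p = 0.0447) and that of Clk1 0.77 (0.0748), and without WT Ctr replicate 2 that of Clk1 was 0.31 (0.597). The lowest value of Clk4 with 1 library left out was 0.404 in this comparison. These comparisons share libraries, so their values are not separate evidence. In the authors' deposited table of WT Ctr against P635L Tnpo3, whose fold changes are WT over mutant, Clk4 had a log2 value of -0.57 with an adjusted p of 0.0538 and Clk2 a value of -0.41 with 0.0601.

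Clk2 and Clk3 encode the other CLK kinases. Clk2 stood at 5.85, 4.13, 5.78 and 5.28 RPKM in WT Ctr, at 4.42, 4.92, 5.52 and 5.35 in WT Tnpo3, at 6.8, 5.77, 5.6 and 4.96 in P635L Ctr, and at 6.0, 6.94, 7.28 and 7.21 in P635L Tnpo3. All 4 P635L Tnpo3 mice were above all 8 WT mice, and P635L Ctr overlapped every other group. Clk2 differed by 0.44 ± 0.13 between P635L Tnpo3 and WT Tnpo3 (edgeR, adjusted p = 0.0564), the smallest adjusted p of any kinase in any contrast, and by 0.25 ± 0.13 between P635L Tnpo3 and P635L Ctr (adjusted p = 0.307). In the former comparison Clk2 passed with DESeq2 (adjusted p = 0.0189), in edgeR when the 3 libraries with much ENSMUSG00000119584 were left out (adjusted p = 0.0224), without WT Tnpo3 replicate 3 (0.0457) and without WT Tnpo3 replicate 4 (0.0474). With 1 library left out at a time, the log2 fold change of Clk2 there ran from 0.382 to 0.50. Clk3 ran from 3.72 to 6.27 RPKM in WT Ctr, from 4.2 to 5.95 in WT Tnpo3, from 4.75 to 6.42 in P635L Ctr and from 5.4 to 5.96 in P635L Tnpo3. Its groups overlapped in every comparison, and its log2 fold change between P635L Ctr and WT Ctr was 0.17 ± 0.14 (edgeR, adjusted p = 0.478), and it moved to 0.07 when WT Ctr replicate 2 was left out and to 0.29 when replicate 4 was.

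Dyrk1a encodes a dual-specificity kinase that also phosphorylates splicing factors, and its gene dosage matters in Down syndrome. It stood at 5.01, 6.54, 4.29 and 4.64 RPKM in WT Ctr, at 6.8, 5.97, 4.35 and 4.57 in WT Tnpo3, at 4.55, 4.56, 4.82 and 4.86 in P635L Ctr, and at 4.32, 4.13, 4.45 and 4.18 in P635L Tnpo3. Values were highest in WT mice with low Clk1, and the 4 P635L Tnpo3 mice were below all 4 P635L Ctr mice. The log2 fold change was -0.14 ± 0.14 between the mutant groups (edgeR, adjusted p = 0.671) and -0.34 ± 0.14 between P635L Tnpo3 and WT Tnpo3 (adjusted p = 0.176). The latter passed in edgeR when WT Ctr replicates 2 and 4 and WT Tnpo3 replicate 4, the libraries with much ENSMUSG00000119584, were left out, at -0.42 (edgeR, adjusted p = 0.0412). Without WT Tnpo3 replicate 1 it was -0.22 (edgeR, adjusted p = 0.49).

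Several kinases varied together from mouse to mouse. Over the 16 libraries and 28 pairs of members, 19 pairs had a Pearson correlation of log2 CPM with an adjusted permutation p under 0.05, of which 13 were positive and 6 negative. The other 9 did not pass, among them Srpk3 with Srpk1 (r = 0.0884) and with Srpk2 (r = -0.0135). The share over all pairs of genes was not computed, so whether 19 of 28 is more than among other genes is not known. The weakest pairs that passed had r = 0.538 (Srpk1 with Clk1) and -0.538 (Srpk2 with Dyrk1a). For Clk1, 3.29% of all genes compared had an r over 0.8, which is a stricter limit. The 16 libraries come from 4 groups, so differences between groups enter these values. Not every pair that passed held in both genotypes. Srpk1 with Srpk2 had r = 0.61 over all libraries, 0.0546 over the 8 WT mice and 0.924 over the 8 P635L mice, and 0.532 after centring on group means. Clk1 and Clk4 had r = 0.98 (permutation p = 1e-05, the smallest that 100000 resamples can give; adjusted p = 0.00014) and Spearman's rho = 0.876 (permutation p = 2e-05). Without the 2 libraries farthest from the median of Clk1, r was 0.961. It was 0.996 over the 8 WT mice, 0.954 over the 8 P635L mice and 0.983 after centring on group means. Clk4 was also the gene with the highest r to Clk1 among 12489 genes whose log2 CPM averaged 1 or more, and Clk1 the gene with the highest r to Clk4. How reads that match both genes were counted is not given in the sources used here, and their part in this value was not tested.

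Dyrk1a ran the other way, with r = -0.828 to Clk1 (permutation p = 0.00014, adjusted p = 0.00056; rho = -0.706, permutation p = 0.00298) and -0.674 without the 2 farthest libraries. This relation was present over the 8 WT mice (r = -0.841) and weak over the 8 P635L mice (r = -0.226). The library, its depth and its composition are shared by all genes in it, and their part in these correlations was not tested. After Clk1 and Clk4 themselves, the genes most like Clk1 were Tubgcp3 (r = 0.974) and Zmym3 (0.97), and Tubgcp3 was also among those most like Clk4 (0.971). The pattern of Clk2 was nearest to Arhgef1 (0.966), Slc25a45 (0.956) and Gramd1a (0.954), that of Clk3 to 1700029J07Rik (0.908), Abcc5 (0.903) and Gm49668 (0.902), and that of Dyrk1a to Abcf2 (0.948), Naa20 (0.938) and Caprin1 (0.937). Srpk1 was nearest to Numb (0.911), Mapk11 (0.911) and Ocrl (0.895), Srpk2 to Eef2kmt (0.926), Xndc1 (0.866) and Gm43343 (0.839), and Srpk3 to Zfp944 (0.871), Rsrp1 (0.839) and Arl14ep (0.819).

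**Figure D3:**
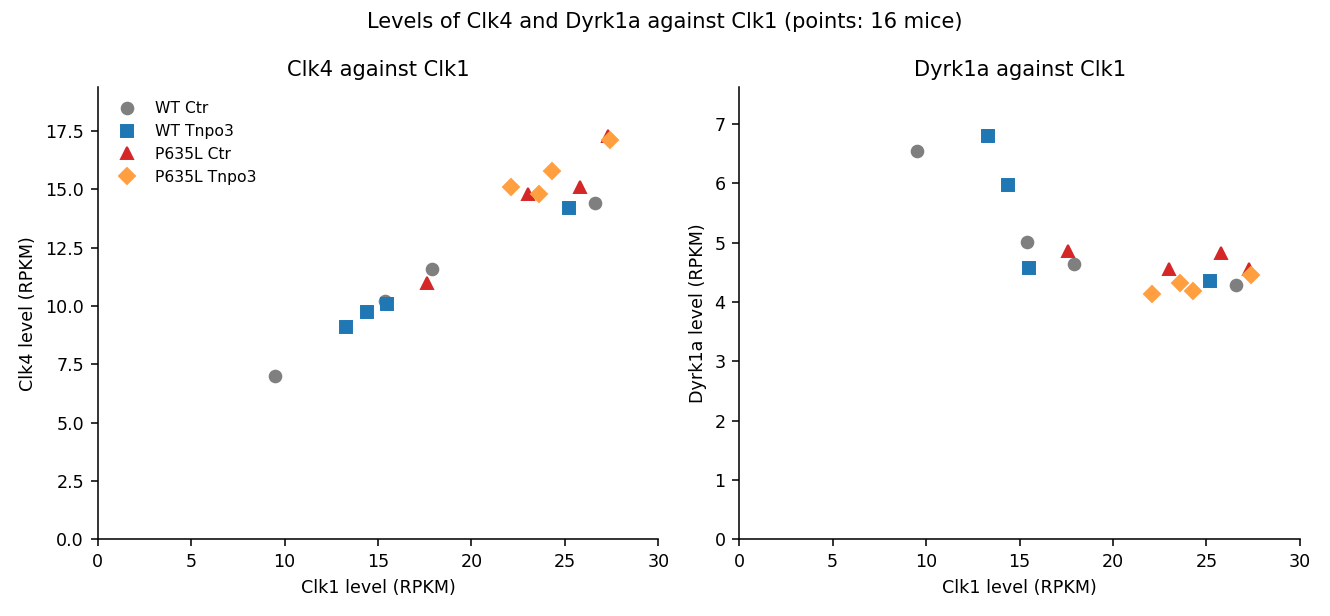
Levels of Clk4 (left) and Dyrk1a (right) against the level of Clk1, all in RPKM with axes from 0; each point is 1 of 16 mice, marked by group. Clk4 follows Clk1 in every group, while Dyrk1a is highest in 3 WT mice with low Clk1.

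The CLK genes share an alternative exon ahead of the kinase domain, and the rMATS tables measure it in all 4. It lies at chromosome 1, 58459280 to 58459370, minus strand, in Clk1 (91 bases), at chromosome 3, 89076922 to 89077009, plus strand, in Clk2 (88 bases, or 85 where splicing starts 3 bases further on), at chromosome 9, 57665910 to 57666006, minus strand, in Clk3 (97 bases), and at chromosome 11, 51163905 to 51163995, plus strand, in Clk4 (91 bases), in GRCm39. The exons are printed because the results below turn on whether they are kept. They come from GENCODE transcripts of the GRCm38 build, matched to the events by the lengths of the exon, its neighbours and the introns. Capitals mark the bases that differ between Clk1 and Clk4, and in Clk2 the 3 bases that its shorter form lacks.
Clk1: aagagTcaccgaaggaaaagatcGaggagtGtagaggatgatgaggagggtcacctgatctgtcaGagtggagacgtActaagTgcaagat
Clk4: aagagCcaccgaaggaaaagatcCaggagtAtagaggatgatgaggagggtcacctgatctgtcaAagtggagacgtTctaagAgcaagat
Clk2: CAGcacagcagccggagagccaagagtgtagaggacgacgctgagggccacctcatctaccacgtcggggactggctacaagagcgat
Clk3: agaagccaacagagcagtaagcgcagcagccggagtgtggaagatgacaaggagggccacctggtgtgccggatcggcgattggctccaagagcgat

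Clk1 and Clk4 are identical at 85 of 91 positions (93.4%), and the other pairs at 57.7% to 64.9% of aligned positions. All 4 exons lie inside the coding sequence and have lengths that leave a remainder of 1 when divided by 3, so leaving the exon out shifts the reading frame. With the exon, the reading frame of Clk1 runs for 483 codons, and without it for 135, with a stop 6 codons after the new junction. The same lengths were 500 and 136 codons for Clk2, 638 and 300 for Clk3, and 481 and 134 for Clk4. CLK products shortened in this way are known to lack the kinase domain.

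For Clk1, Clk2 and Clk3, the tables hold a second event with the same outer exons, which counts reads running from those exons into the unspliced region. It shares its skipping reads with the exon event, so 3 products could be set beside each other in each library: molecules unspliced at the outer borders, molecules with the exon, and molecules without it. Reads were divided by the length factor implied by the deposited levels (1.8 to 1.88 for the exon, 2.0 for the unspliced borders). For Clk2 the event of the 88-base form was used, which misses reads joining the upstream exon to the 85-base form. Measured against the 85-base form, the 88-base form had mean levels of only 0.538 to 0.618. The exon-included share and exon level of Clk2 are therefore too low, and its unspliced and skipped shares too high. A read at a border cannot tell a molecule with both introns from a molecule with one. This measure was chosen after the event lists had been seen. The tables do not give the order of libraries in a group, so values are named by listed position.

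Most Clk1 molecules were unspliced at this region in every group. The unspliced share was 62.1%, 48.9%, 78.1% and 72.2% at positions 1 to 4 of WT Ctr, 70.8%, 51.4%, 69.2% and 60.7% in WT Tnpo3, 78.6%, 80.8%, 82.8% and 68.6% in P635L Ctr, and 79.8%, 70.2%, 74.7% and 82.0% in P635L Tnpo3. Lower values were reached in the WT libraries, and the groups overlapped. The mean differed by 13.7 percentage points between P635L Tnpo3 and WT Tnpo3 (exact permutation p = 0.0571, adjusted p = 0.463 over 65 tests of these products; 70 assignments, smallest possible p 0.0286). The exon-included share had means of 24.5% ± 9.4 (SD, n = 4) in WT Ctr, 23.1% ± 6.58 in WT Tnpo3, 16.2% ± 5.76 in P635L Ctr and 15.3% ± 4.23 in P635L Tnpo3, and the skipped share had means from 6.04% in P635L Ctr to 13.9% in WT Tnpo3. As deposited, the retained-intron level of this Clk1 event was 0.86 ± 0.083 in WT Ctr. That level sets unspliced molecules against exon-skipped ones only and leaves out molecules with the exon. With these counted, the unspliced share averaged 65.3% ± 12.8 in WT Ctr. The median deposited level over 2826 retained-intron events with at least 10 reads in WT Ctr was 0.154, and 15.9% of them were at or above the 0.86 of Clk1. Where the share of 65.3% would stand among them was not computed. The other retained intron of Clk1, of 87 bases, had levels of 0.0235 to 0.0307 in the 4 group means.

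Clk2 and Clk3 were mostly spliced with the exon kept. The unspliced share of Clk2 ran from 9.58% to 32.0% over the 16 libraries and that of Clk3 from 10.8% to 20.7%, both below the lowest Clk1 library. In Clk3, the exon-included share had means of 67.2% ± 5.82 (SD, n = 4) in WT Ctr, 71.4% ± 3.52 in WT Tnpo3, 74.2% ± 3.74 in P635L Ctr and 65.4% ± 4.82 in P635L Tnpo3. Molecules without the exon made up 18.1% ± 6.12 in WT Ctr, 15.6% ± 2.47 in WT Tnpo3, 10.9% ± 3.96 in P635L Ctr and 16.2% ± 2.83 in P635L Tnpo3. In Clk2, the exon-included share was 60.5% ± 16.4 in WT Ctr, 60.5% ± 10.7 in WT Tnpo3, 68.0% ± 7.6 in P635L Ctr and 54.8% ± 8.01 in P635L Tnpo3. Its skipped share was 18.4% ± 7.24 in WT Ctr, 16.6% in WT Tnpo3 (from 1.77% to 23.5%), 11.4% ± 3.23 in P635L Ctr and 16.5% ± 7.31 in P635L Tnpo3. None of the 65 tests passed after adjustment, and the smallest adjusted p was 0.463 (exact permutation tests).

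**Figure D4:**
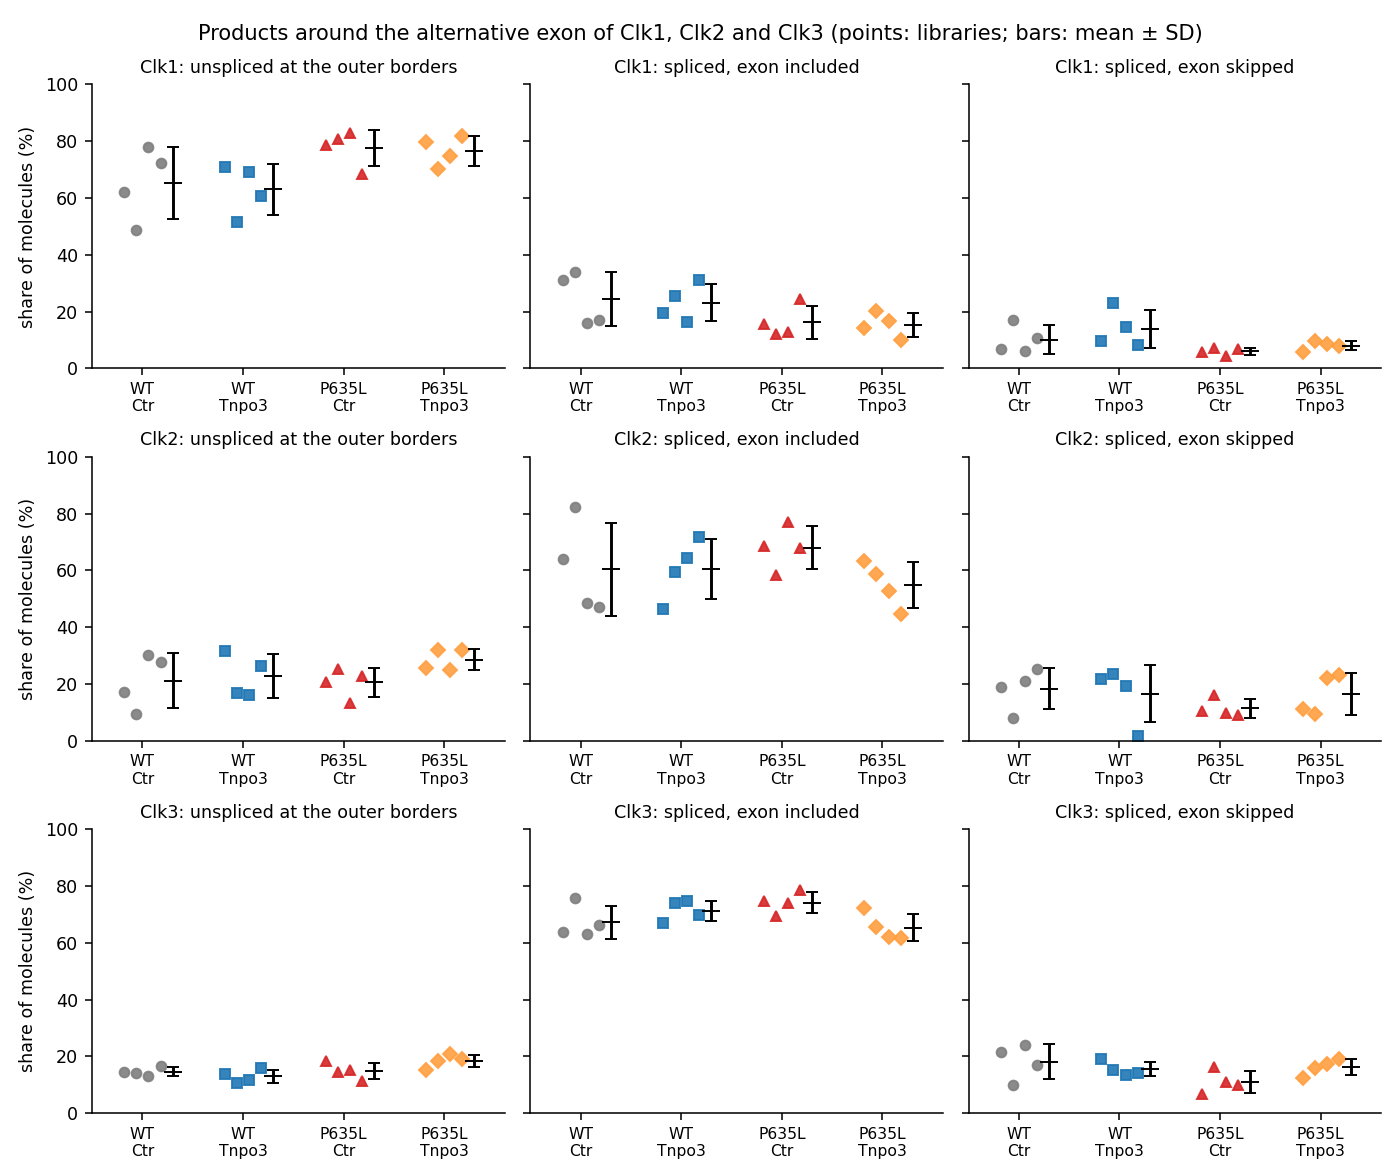
Share in percent (vertical axes, 0 to 100) of 3 products around the alternative exon of Clk1, Clk2 and Clk3 (rows), by group; points are libraries, and bars are the mean with SD over 4 libraries. Clk1 sits at or above 48.9% unspliced in every library, and Clk2 and Clk3 are mostly spliced with the exon.

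The exon of Clk4 had the lowest mean inclusion of the 4 in every group. Its deposited inclusion level averaged 0.61 ± 0.0608 (SD, n = 4) in WT Ctr, 0.561 ± 0.164 in WT Tnpo3, 0.649 ± 0.073 in P635L Ctr and 0.497 ± 0.108 in P635L Tnpo3. Corresponding levels of Clk1, counted over spliced molecules, were 0.706, 0.629, 0.721 and 0.65, those of Clk2 0.757, 0.785, 0.855 and 0.768, and those of Clk3 0.788, 0.821, 0.872 and 0.801. In all 4 genes the mean of P635L Tnpo3 was below that of P635L Ctr, with differences of -0.0705 in Clk1, -0.0863 in Clk2, -0.0713 in Clk3 and -0.152 in Clk4. The exact permutation p-values were 0.2, 0.171, 0.0571 and 0.0857, and the groups overlapped in each gene. In the limma fit the Clk4 exon had an unadjusted p of 0.0326 and an adjusted p of 0.425 over 29303 events. The share of all skipped exons with a lower mean in P635L Tnpo3 than in P635L Ctr was not computed. Between WT Tnpo3 and WT Ctr the direction was mixed, with differences of -0.077 in Clk1, 0.0282 in Clk2, 0.0333 in Clk3 and -0.0487 in Clk4. The authors' deposited table gave the Clk3 exon an FDR of 0.0462 between WT Ctr and P635L Ctr, with a higher level in the mutant by 0.084, which is under the difference of 0.1 set here.

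Over all their events, the kinases were tested by limma on log2 ratios of inclusion reads over skipping reads, where an event counted as changed at an adjusted p under 0.05 and an inclusion difference of at least 0.1. Of the 88 events, 56 were skipped exons, 11 retained introns, 9 mutually exclusive exons, 10 alternative 3′ sites and 2 alternative 5′ sites, and Clk1 (22), Clk4 (19), Clk2 (13) and Clk3 (10) held most of them. In 39 events the mean inclusion level was at least 0.95 in every group measured, among them 14 of Clk1. Events with a mean of 10 junction reads per library in both groups could be tested, which left 65 between P635L Ctr and WT Ctr, 61 between P635L Tnpo3 and P635L Ctr, 57 between WT Tnpo3 and WT Ctr, 68 between P635L Tnpo3 and WT Ctr, 56 between P635L Tnpo3 and WT Tnpo3, and 54 in the interaction. No kinase event was called by limma in any of these (0 of each number). Over all genes, 0.126%, 0.0239%, 0.0%, 0.026%, 0.00366% and 0.00394% of tested events were called, in the same order. An unadjusted p under 0.05 was found for 14, 7, 4, 8, 3 and 5 kinase events, and for 14.5%, 11.2%, 7.28%, 12.2%, 9.5% and 10.9% of all tested events.

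At an FDR under 0.05 alone, 3 kinase events were listed between P635L Ctr and WT Ctr (6.17% of all events), 2 between WT Tnpo3 and WT Ctr (2.11%) and 3 between P635L Tnpo3 and WT Ctr (5.12%), in the authors' deposited tables. By that FDR with the same difference of 0.1, 1 kinase event was called between P635L Ctr and WT Ctr (2.5% of all events), 0 between WT Tnpo3 and WT Ctr (0.928%) and 1 between P635L Tnpo3 and WT Ctr (2.1%). These 3 tables share the WT Ctr libraries, so their values stand side by side and not as separate evidence. The first was a 78-base exon of Clk4 (chromosome 11, 51159596 to 51159673), with deposited levels of 0.268, 0.2, 0.0 and 0.083 at positions 1 to 4 of WT Ctr and 0.297, 0.395, 0.33 and 0.35 in P635L Ctr. The P635L Ctr libraries were all above the WT Ctr libraries, while WT Tnpo3 (0.494, 0.369, 0.319 and 0.0) and P635L Tnpo3 (0.206, 0.138, 0.409 and 0.24) spread over both. The difference was 0.205 (FDR 0.016 in the authors' deposited table; limma, adjusted p = 0.295), on means of 10.75 junction reads in WT Ctr and 47.0 in P635L Ctr. At 10.75 reads a level is coarse, and the library without inclusion reads in WT Ctr held 5 reads. Measured against a nearer downstream exon, the same exon had levels of 1.0, 1.0, 0.0 and 0.281 in WT Ctr. In P635L Ctr these were 0.725, 0.568, 0.661 and 0.814, and the groups overlapped (exact permutation p = 0.629). That event held means of 4.25 reads in WT Ctr and 16.75 in P635L Ctr. The share of all events whose groups do not overlap was not computed.

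The second was the 346-base intron after the alternative exon of Clk2 (chromosome 3, 89077010 to 89077355). Its retention level was 0.193, 0.082, 0.372 and 0.231 in WT Ctr and 0.264, 0.398, 0.409 and 0.368 in P635L Tnpo3. The libraries overlapped through position 3 of WT Ctr. The difference was 0.14 (FDR 0.0284 in the authors' deposited table; exact permutation p = 0.0857). The group means of WT Tnpo3 and P635L Ctr lay between, at 0.298 ± 0.0753 and 0.312 ± 0.0797 (SD, n = 4).

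The remaining kinase events with an FDR under 0.05 in the authors' deposited tables had smaller differences and were singled out after their values were seen. A 79-base intron of Srpk3 (chromosome X, 72821781 to 72821859) had this FDR in all 3 tables. Its retention level was 0.113, 0.108, 0.088 and 0.172 in WT Ctr, 0.156, 0.248, 0.203 and 0.267 in WT Tnpo3, 0.189, 0.176, 0.135 and 0.146 in P635L Ctr, and 0.167, 0.171, 0.223 and 0.138 in P635L Tnpo3. WT Ctr was lowest on average, and its position 4 overlapped every other group. The differences from WT Ctr were 0.0983 in WT Tnpo3 (FDR 0.000109), 0.0413 in P635L Ctr (FDR 0.0219) and 0.0545 in P635L Tnpo3 (FDR 0.00317), with exact permutation p-values of 0.0571, 0.114 and 0.114. A 191-base intron of Clk4 (chromosome 11, 51166406 to 51166596) was retained at 0.052, 0.046, 0.046 and 0.015 in WT Ctr and at 0.083, 0.074, 0.078 and 0.122 in WT Tnpo3. These groups did not overlap (FDR 0.00307 in the authors' deposited table; exact permutation p = 0.0286, the smallest possible; limma, adjusted p = 0.624). Its means in the mutant mice were 0.041 ± 0.0114 with the control virus and 0.0515 ± 0.0196 with Tnpo3 (SD, n = 4). The 276-base intron of Clk3 after its alternative exon (chromosome 9, 57665634 to 57665909) had a mean of 0.193 ± 0.0618 in WT Ctr and 0.287 ± 0.0388 in P635L Tnpo3 (FDR 0.0128; exact permutation p = 0.0571).

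**Figure D5:**
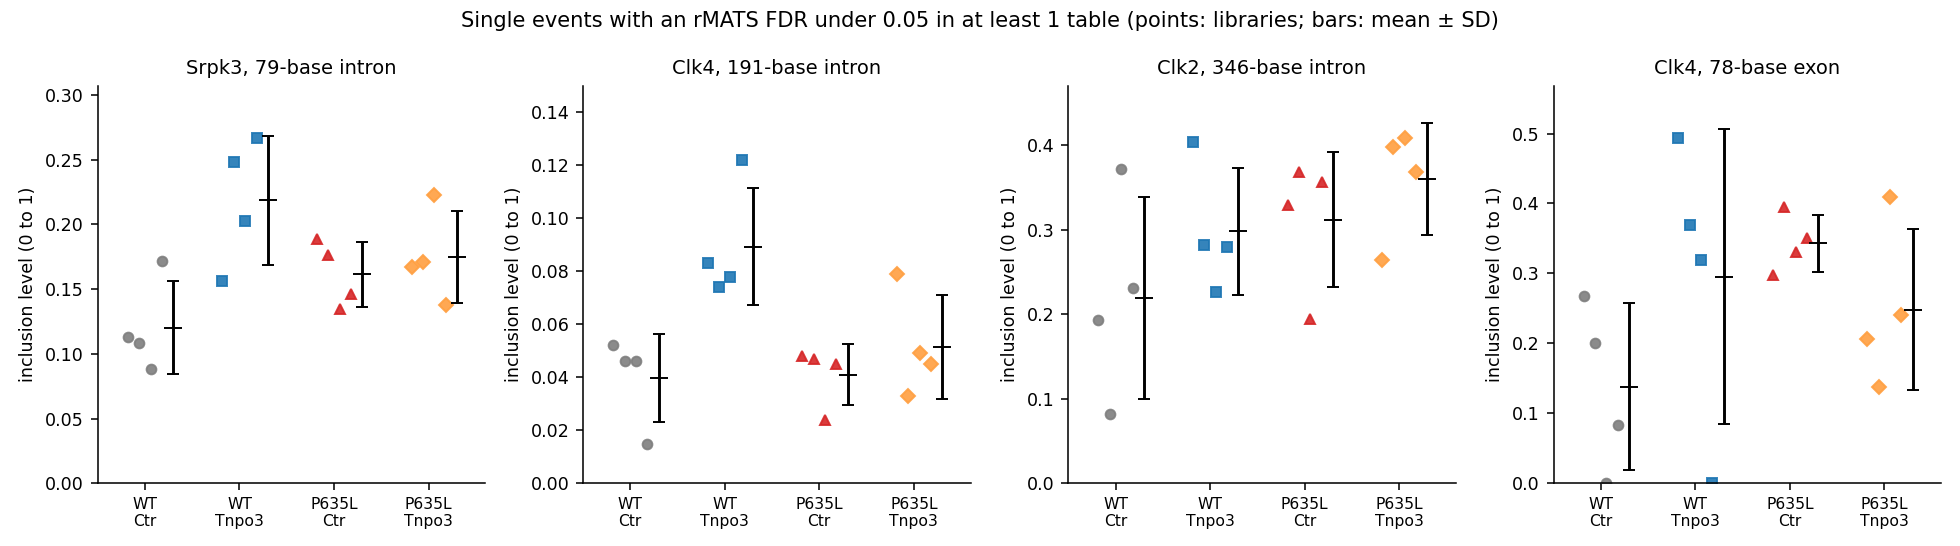
Inclusion level (vertical axes, 0 to 1 scale, each from 0) of 3 introns and 1 exon of the kinases, by group; points are libraries, and bars are the mean with SD over 4 libraries. WT Ctr has the lowest mean in each panel, and WT Tnpo3 lies above both control virus groups for the Clk4 intron. The events were chosen by FDR in comparisons that all use the WT Ctr libraries, which favours WT Ctr as the extreme group. The Clk4 exon is measured against its farther downstream exon.

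Retained introns made up 3 of the 3 kinase events with an FDR under 0.05 in the authors' deposited table of P635L Tnpo3, 2 of 2 in that of WT Tnpo3 and 1 of 3 in that of P635L Ctr. Of 11 covered kinase introns in each table, these are 3, 2 and 1, beside 20.1%, 4.91% and 11.3% of all covered retained introns. The level was above WT Ctr for 9 of 11 kinase introns in P635L Tnpo3, 6 of 11 in WT Tnpo3 and 8 of 11 in P635L Ctr, beside 64.8%, 49.7% and 52.4% of all covered retained introns. Several of these introns belong to nested events of 1 region and share reads.

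Among the events listed in all 3 tables, the best-covered ones of Srpk1 and Srpk3 were close to constant. The 93-base exon of Srpk1 had mean levels of 0.997 to 1.0, and the 70-base exon of Srpk3 of 0.997 to 0.999. The long intron of Srpk1 (373 bases) was retained at means of 0.468 to 0.577 with no order among the groups beyond their spread. Among these events, the best-covered one of Srpk2 held 12.88 junction reads per library and that of Dyrk1a 15.94, while events listed in 1 table reached 40.75 reads in a group for Srpk2 and 63.75 for Dyrk1a. The Dyrk1a event with 15.94 reads was an 86-base exon near the 5′ end, with group means of only 11.0 to 26.0 reads. This exon averaged 0.82 ± 0.208 in WT Ctr, 0.968 ± 0.0645 in WT Tnpo3, 1.0 ± 0.0 in P635L Ctr and 0.893 ± 0.13 in P635L Tnpo3 (SD, n = 4). Its interaction of virus and genotype had an unadjusted p of 0.00369 and an adjusted p of 0.349 in limma.

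The partners of the kinases were described from lists by role. Of 12 tested kinases and factors of splicing and nuclear speckles outside the CLK and SRPK families, Top1, a topoisomerase that can phosphorylate SR proteins, was the 1 called between P635L Ctr and WT Ctr (beside 14.2% of all genes), at 53.0 ± 2.83 and 71.7 ± 10.7 CPM (log2 fold change -0.44 ± 0.12; edgeR, adjusted p = 0.0172). Between P635L Tnpo3 and P635L Ctr, 0 of the 12 were called, and Top1 stood at 66.2 ± 2.46 CPM in P635L Tnpo3. Between P635L Tnpo3 and WT Tnpo3, 2 of the 12 were called, beside 3.72% of all genes. These were Hipk1 and Hipk3, homeodomain-interacting protein kinases, both lower in P635L Tnpo3 (log2 fold changes of -0.41 ± 0.11 and -0.57 ± 0.15, adjusted p = 0.0377 and 0.0481 in edgeR). Of 7 phosphatase genes that act on SR proteins, 0 were called in any contrast (edgeR), and 7 of 7 were negative from P635L Ctr to P635L Tnpo3, with a median log2 fold change of -0.12 beside 0.01 over all genes. Of 16 tested substrates with RS domains, 2 were called between P635L Ctr and WT Ctr, where 14.2% of all genes were called: Srsf2, from 77.8 ± 16.8 to 109 ± 7.73 CPM (log2 fold change 0.48 ± 0.13; edgeR, adjusted p = 0.0195), and Srsf7, from 61.9 ± 9.36 to 82.1 ± 9.23 CPM (0.41 ± 0.12; adjusted p = 0.0277). The median of the 16 was 0.17, and 0 were called between P635L Tnpo3 and P635L Ctr. Of 7 genes for chaperones and anchors of the SRPK kinases, such as Hsp90aa1 and Safb, 0 were called in any contrast.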

How the data were processed

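RNA of 16 left ventricles was sequenced after poly(A) selection. Per the submitters' processing notes, the authors aligned reads to GRCm39 with STAR 2.7.9a, counted them per gene with featureCounts 2.0.6 and used DESeq2. Per the file headers, the deposited DESeq2 tables give a mean normalised signal, log2 fold changes, a test score and p-values, and the rMATS tables give junction read counts, inclusion levels, an inclusion difference (a score) and FDR values. Counts were fitted with edgeR 4.0.16 (robust quasi-likelihood, TMM, filterByExpr, all 16 libraries, residual df 12) and, as an alternative, DESeq2 1.42.0. Event reads were fitted with limma 3.58.1 (pseudocount 0.5, mean of at least 10 reads in both groups). Group comparisons of single values used exact two-sided permutation over 70 assignments, whose smallest p is 0.0286. Fits were tested on simulated data. P-values of the group comparisons fitted or permuted here measure the spread between mice. Those of the order of levels come from paired differences within the 16 libraries, and those of correlations from permutation over the 16 libraries. The rMATS FDR values are the authors' own. Genes alike were the 3 with the highest r, of which 1 is not reported here. The members and lists were chosen with earlier results of these data known. R 4.3.3 and Python 3.11.15 were used.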

Additional observations from a re-analysis of the deposited data

Results flagged for a closer look

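Among 100 groups of 4 values checked, 6 held a value far from the other 3 by Dixon's ratio at its 95% critical value, and chance flags about 1 in 20. Srpk2 stood at 2.95 RPKM in P635L Ctr replicate 4, below the other 3 of its group. The 191-base intron of Clk4 was retained at 0.015 at position 4 of WT Ctr and at 0.024 at position 3 of P635L Ctr, both below the rest. The 78-base exon of Clk4, measured against a nearer downstream exon, was included at 0.804 at position 2 of P635L Tnpo3, on 8 reads. The 86-base exon of Dyrk1a was included at 0.871 at position 4 of WT Tnpo3, and the 373-base intron of Srpk1 was retained at 0.647 at position 3 of WT Tnpo3.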

How the results depend on the processing

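The number of kinases called was 0 in each contrast and stayed 0 in most alternatives. With only the groups compared it was 1 (Srpk1) between P635L Tnpo3 and P635L Ctr. Between P635L Tnpo3 and WT Tnpo3 it was 1 (Clk2) with DESeq2 and 2 (Clk2 and Dyrk1a) without WT Ctr replicates 2 and 4 and WT Tnpo3 replicate 4. Leaving out 1 library at a time gave 0 to 2 between P635L Ctr and WT Ctr (2 without WT Ctr replicate 3), 0 to 1 between P635L Tnpo3 and WT Ctr (1 without WT Ctr replicate 3) and 0 to 2 between P635L Tnpo3 and WT Tnpo3 (2 without WT Tnpo3 replicate 3). Kinase events called with the authors' rMATS FDR numbered 1 between P635L Ctr and WT Ctr and 1 between P635L Tnpo3 and WT Ctr. The difference of the 78-base Clk4 exon between P635L Tnpo3 and WT Tnpo3 ran from -0.146 to 0.0189 (without position 1 of WT Tnpo3), and that of the Srpk3 intron between P635L Tnpo3 and P635L Ctr from -0.00283 (without position 3 of P635L Tnpo3) to 0.0255. Over all genes, calls ran over the alternatives from 1814 to 3327 between P635L Ctr and WT Ctr, 282 to 2846 between P635L Tnpo3 and P635L Ctr, 0 to 3 between WT Tnpo3 and WT Ctr, 282 to 1113 between P635L Tnpo3 and WT Ctr, 280 to 1887 between P635L Tnpo3 and WT Tnpo3, and 52 to 412 in the interaction. The causes were not tested.

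With the replicate number as a block, 0 kinases were called, Clk1 differed by 0.50 (adjusted p = 0.105 in edgeR) and Clk4 by 0.46 (0.0824) between P635L Ctr and WT Ctr, and 2487, 677, 1, 490, 547 and 113 genes were called in the contrasts in the order of the report. After centring on group means, same-numbered libraries of different groups correlated over 0.1 in 6 of 24 pairs. Their r ran from -0.34 to 0.65 with a mean of 0.0027, beside -0.0011 for other pairs. Expression alone cannot tell whether the numbers mark mice handled together. No paired analysis was possible for events because the order of libraries in the rMATS tables is not stated.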
